A study of Homo sapiens with 9 samples.

Results

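The CDK12-2 siRNA, one of a pair of short interfering RNAs against the kinase CDK12, was compared with a luciferase siRNA in the human ovarian cancer cell line OVCAR-8. The comparison holds 6 of the 9 libraries of the series: 3 from cells that received CDK12-2 siRNA and 3 from cells that received luciferase siRNA. The other 3 are from cells given the second siRNA against the same kinase, CDK12-6. RNA was taken 48 h after transfection in every group, cells were grown in RPMI-1640 with fetal bovine serum, and the names AK39, AK41 and AK49 mark 1 library each per group. The series text calls the 3 libraries of a group technical replicates of this single line, so spreads and p-values describe these libraries and not separate cultures. Members of the comparison were chosen by their column names. The genes described in depth are those that passed the test with a change of 2-fold or more and lie beyond the 10 largest on their side.

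CDK12 pairs with cyclin K and adds phosphate to the repeated tail of the largest subunit of RNA polymerase II, which helps the polymerase through long genes. Its loss is known to lower transcripts of large DNA repair genes and to increase the use of early polyadenylation sites, and the gene is recurrently mutated in serous ovarian carcinoma. A luciferase siRNA has no intended target in human cells and serves as the control for transfection. Values are RPKM, which divides the reads of a gene by its length and by the size of the library. They are relative within a library, so a fall of all mRNA together could not be seen, and in bulk RNA fewer cells with a transcript and less of it per cell cannot be told apart.

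In the libraries used here 68.2% to 82.6% of reads with CDK12-2 siRNA and 75.8% to 82.7% with luciferase siRNA lay in listed genes, and libraries of the series held 104963048 to 131472019 reads in those genes. Of 12 markers fixed for ovarian carcinoma, 6 (PAX8, MSLN, EPCAM, KRT7, KRT8 and KRT18) reached 1 RPKM in all 6 libraries, while MUC16, SOX17, MECOM, CDH1 and KRT19 stayed under 1 RPKM in all. The 4 endothelial markers in the table were also under 1 RPKM throughout. So were 5 of 7 leukocyte markers, and COL1A1 alone of 6 fibroblast markers reached 1 RPKM in every library, at 16.4 to 34.4 RPKM with CDK12-2 siRNA and 12.5 to 22.5 RPKM with luciferase siRNA. The libraries differed in RNAs that lack a poly(A) tail (small nuclear, small nucleolar, 7SK, 7SL and like RNAs), which took 0.171%, 0.129% and 0.110% of reads in AK39, AK41 and AK49 with CDK12-2 siRNA and 0.139%, 0.183% and 0.143% of reads with luciferase siRNA. CDK12-2 AK39 and luciferase AK41 thus stood highest in their groups.

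The targeted transcript was lower in every CDK12-2 library. CDK12 (ENSG00000167258, chr17:37617764-37721160 in hg19) had 2.06, 2.57 and 2.70 RPKM with CDK12-2 siRNA, against 8.33, 7.09 and 8.40 RPKM with luciferase siRNA, always in the order AK39, AK41, AK49. This is 0.308 times the luciferase level, and the log2 difference, taken on log2(RPKM + 1) throughout, was -1.38 ± 0.11 (SE; limma, adjusted p = 5.8e-05). The 2 groups were far apart. CDK13, the closest relative of the kinase, had 4.29, 5.04 and 5.92 RPKM with CDK12-2 siRNA, against 4.97, 4.15 and 5.08 RPKM with luciferase siRNA, and its log2 difference was 0.081 ± 0.14 (limma, adjusted p = 0.72). CCNK, the gene of cyclin K, had 4.46, 5.94 and 7.14 RPKM with CDK12-2 siRNA, against 7.64, 5.62 and 7.16 RPKM with luciferase siRNA (log2 difference -0.20 ± 0.18, limma, adjusted p = 0.46). The groups overlapped for both genes, and neither passed the test.

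Of 15208 tested genes, 99 were higher by 2-fold or more (0.651% of those tested) and 163 were lower by that much (1.07%), all with an adjusted p under 0.05 in limma and with no overlap between the 3 CDK12-2 and the 3 luciferase libraries. At any size 1485 genes were higher (9.76%) and 2343 lower (15.4%). When values were scaled to reads inside listed genes, 2862 were higher and 2633 lower, and quantile normalization gave 2727 higher and 2803 lower. Leaving out AK39 gave 1233 higher and 911 lower, AK41 288 and 614, and AK49 847 and 1710. Without the 3 libraries richest in RNA that lacks a tail, 1824 were higher and 2140 lower. For list counts under an alternative, these all-gene counts of the same alternative are the background. In 6103 genes, 40.1% of those tested, the 2 groups did not overlap whatever the size. The larger number of lower genes among the 2-fold changes depended on AK39 and on the added 1 RPKM, and the gap was smaller under the other scalings. Scaled to reads inside listed genes, 117 were 2-fold higher and 129 lower, and by quantiles 101 higher and 130 lower. Without AK39 in any group there were 155 higher and 104 lower, and without the CDK12-2 AK39 library alone 140 higher and 123 lower. With a pseudocount of 0.1 RPKM 669 genes passed 2-fold, 330 higher and 339 lower, and with 2-fold set on the ratio of mean RPKM 740 did, 371 higher and 369 lower. Ratios of mean RPKM ran from 2.13 to 18.8 over the 99 higher genes and from 0.167 to 0.499 over the 163 lower genes. The 10 largest increases were in PPME1, GREM1, P4HA3, FN1, STC2, ARFRP1, RP11-290M5.2, HIST1H2BJ, SCG5 and HIST1H2BK. Among decreases the top 10 were PMVK, CTB-12A17.3, CALM3, RRBP1, KRTAP2-3, CTSZ, ESRG, RP11-380P13.2, HTATSF1P2 and UHMK1. Numbers given without AK39, AK41 or AK49 leave out the libraries of that name in all 3 groups. Beyond the 10 largest, 89 higher and 153 lower genes remain, of which 54 and 92 were sorted into groups by their known roles after their values had been seen. The groups are a description and were not tested.

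**Figure D1:**
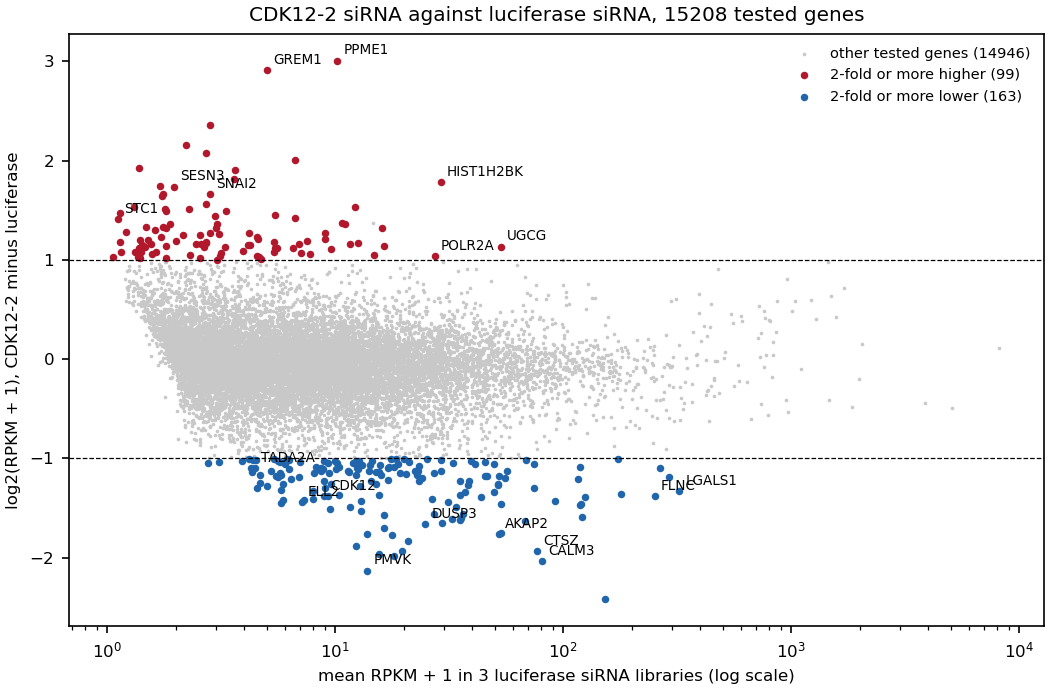
Each point is a tested gene. The x axis is the mean RPKM + 1 over the 3 luciferase libraries on a log scale, and the y axis is the difference in log2(RPKM + 1), CDK12-2 minus luciferase. Red points are the 99 genes higher by 2-fold or more, blue points the 163 lower by 2-fold or more, and dashed lines mark the 2-fold limits. Red points lie mostly at low luciferase levels and blue points reach from about 2 to over 300 RPKM.

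The 99 higher genes had a median level of 6.05 RPKM with CDK12-2 siRNA and 1.83 RPKM with luciferase siRNA, and 34 of them were under 1 RPKM in the luciferase mean. The 163 lower genes had a median level of 5.30 RPKM with CDK12-2 siRNA and 14.6 RPKM with luciferase siRNA. Since 1 RPKM is added before the logarithm, the limit asks for a larger ratio from genes of low level, and a gene under 1 RPKM with luciferase siRNA could not reach it on the lower side. Just inside the limit lay TLE4 (1.0019) and RPS6KA4 (-1.0013), and just outside it ARL6IP1 (0.99) and FLOT1 (-0.998). PDIA3P2, a pseudogene, passed the limit but not the test, with a log2 difference of 1.37 ± 0.86 (limma, adjusted p = 0.28). Its luciferase AK39 library had 0.385 RPKM and its other 5 libraries had 18.5 to 23.1 RPKM.

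The libraries also moved by unequal amounts. CDK12-2 AK39 was the least moved of the 3 CDK12-2 libraries in 77 of the 99 higher genes and the most moved in 139 of the 163 lower genes. CDK12-2 AK49 was the most moved in 66 higher genes and the least moved in 123 lower genes. Across both sides, then, RPKM in CDK12-2 AK39 tended to lie under that in CDK12-2 AK49. In its group AK39 also stood highest for RNAs that lack a tail and had the smallest share of reads in listed genes, and the part of these in the differences was not tested.

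Among the genes lower by 2-fold or more, a short sequence was common in annotated 3′ untranslated regions. The heptamer GTGGGCA, searched on the transcript strand only, lay in a 3′ UTR of 52 of 108 lower genes with an annotated UTR (48.1%) and of 10 of 66 higher genes (15.2%). Over all 10916 tested genes with a UTR the share was 16.3%, and over the 8102 that did not pass the test 16.0%. Among genes that passed with a change under 2-fold, it was 19.3% in the lower and 10.1% in the higher. The heptamer had been picked in an earlier screen of these same libraries, so its share is a description with no test. Per length of UTR there were 3.20 matches per 10 kb in the lower genes, 0.954 in the higher genes and 0.936 in all. The median length of the longest UTR was 1234.5 bases in the lower genes, 1141 in the higher and 1329 over all. Genes with the heptamer had longer UTRs than those without, with medians of 2519.5 and 626 bases in the lower genes and 2546 and 1137 bases over all. The part of UTR length in the shares was not tested. The longer form GTGGGCAA was found in 16 lower genes (14.8%), 3 higher genes (4.55%) and 2.95% of all. Over all tested genes with a UTR, the median log2 difference was -0.097 in those with the heptamer and -0.030 in those without.

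Sites of the octamer in 5 lower genes beyond the 10 largest, and in THBS1, 1 of the 3 higher genes that hold it, are printed here to show the octamer in its surroundings. Each is 28 bases of the transcript strand in GRCh38, from GENCODE annotation, with the octamer in capitals.
AKAP2 (chr9:110169294-110169321, plus strand): actatatttaGTGGGCAAcaactatttt
DUSP3 (chr17:43769548-43769575, minus strand): gggggaggccGTGGGCAAaggtgtcccg
BCL2L2 (chr14:23311182-23311209, plus strand): tgggaccacaGTGGGCAAttttgacctg
PSMD9 (chr12:121916547-121916574, plus strand): tccctggattGTGGGCAAgtgggcggaa
STK35 (chr20:2144055-2144082, plus strand): gaaattcaatGTGGGCAAggcatatgtg
THBS1 (chr15:39597867-39597894, plus strand): gatgccttggGTGGGCAAcacgattgca
By group of known role, the heptamer was present in 6 of 9 lower growth factor response genes and in 7 of 10 genes of trafficking, ubiquitin and proteasome. It was present in 8 of 19 genes of the actin cytoskeleton and membrane and in none of the 4 genes for S100 proteins and a galectin. Other groups included metabolic enzymes and transporters (7 of 11), secreted and surface proteins (4 of 13) and transcription and RNA factors (5 of 9). Over all lower genes beyond the 10 largest the share was 49 of 102 (48.0%), and these small groups were not tested against it. AKAP2 and PALM2-AKAP2 share a UTR and its site, so that UTR stands under both names among the lower genes and in the actin group. A match is a run of letters in an annotated UTR and not a shown site of any factor.

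**Figure D2:**
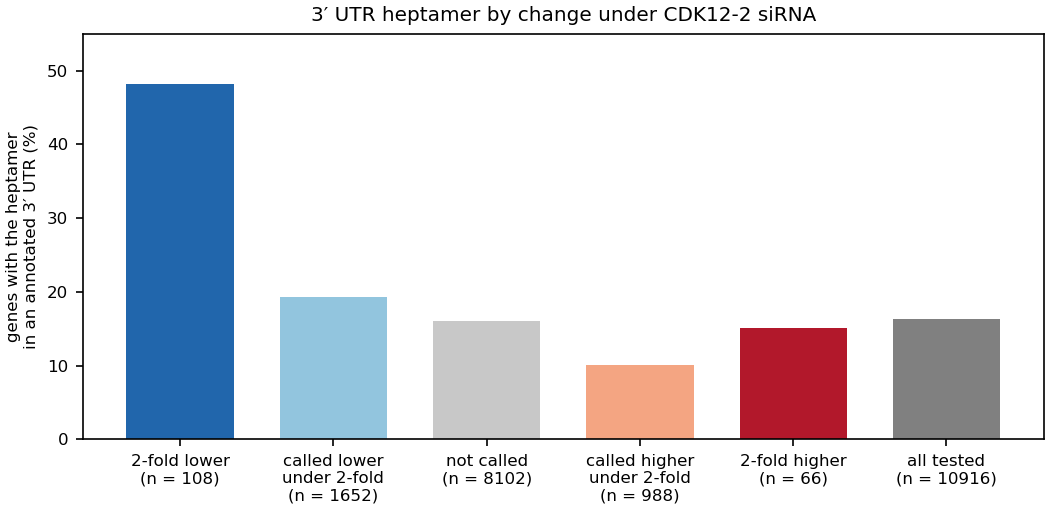
Bars show the percent of genes whose annotated 3′ UTR holds the heptamer, by change with CDK12-2 siRNA against luciferase siRNA, with the number of genes that have a UTR under each bar. The bar of the 108 genes lower by 2-fold or more stands at 48.1% and the other 5 bars lie between 10.1% and 19.3%.

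Genes of signalling inside the cell numbered 7 on the higher side beyond the 10 largest. SESN3, a sestrin that restrains the growth kinase complex mTORC1, had 5.30, 5.79 and 5.60 RPKM with CDK12-2 siRNA, against 0.958, 1.05 and 0.901 RPKM with luciferase siRNA (log2 difference 1.74 ± 0.075, limma, adjusted p = 1.1e-05). PIK3R3, a regulatory subunit of phosphoinositide 3-kinase, had 5.84, 7.44 and 8.12 RPKM with CDK12-2 siRNA, against 1.79, 1.62 and 1.76 RPKM with luciferase siRNA. DOCK2, an activator of the GTPase Rac, had 3.12, 3.56 and 3.66 RPKM with CDK12-2 siRNA, against 0.765, 0.733 and 0.792 RPKM with luciferase siRNA. In all 3 the CDK12-2 libraries lay well clear of the luciferase libraries, and in DOCK2 and SESN3 they differed little among themselves. Of lower rank, EIF4EBP2, a repressor of cap-dependent translation, had a log2 difference of 1.21 ± 0.17. PRKACB, a catalytic subunit of protein kinase A, had 1.17 ± 0.092, ARHGDIB, a regulator of small GTPases, 1.07 ± 0.12 and NEDD9, an adhesion docking protein, 1.04 ± 0.16.

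Transcription factors and chromatin proteins formed the largest group on the higher side, with 13 genes. SNAI2, the repressor Slug of epithelial to mesenchymal transition, had 6.69, 8.47 and 8.88 RPKM with CDK12-2 siRNA, against 1.89, 1.63 and 1.97 RPKM with luciferase siRNA (log2 difference 1.66 ± 0.13, limma, adjusted p = 4.4e-05). SOX9, a developmental factor, had 6.23, 8.93 and 10.3 RPKM with CDK12-2 siRNA, against 2.45, 1.97 and 2.51 RPKM with luciferase siRNA (log2 difference 1.4967 ± 0.18, adjusted p = 0.0004 in limma). ZNF804A, a zinc finger protein, had 4.06, 4.06 and 4.18 RPKM with CDK12-2 siRNA, against 0.739, 0.844 and 0.874 RPKM with luciferase siRNA. ZNF804A was even within each group, while SOX9 differed by over 1.5 times between CDK12-2 AK39 and AK49. SIX5, a homeobox factor, had a log2 difference of 1.27 ± 0.15 and CBX5, heterochromatin protein HP1 alpha, 1.17 ± 0.14. The differentiation inhibitors ID3 and HES1 changed by 1.12 ± 0.11 and 1.06 ± 0.10 on the log2 scale. POLR2A, named here after its values were seen because it encodes the subunit that CDK12 phosphorylates, had 37.5, 57.7 and 73.0 RPKM with CDK12-2 siRNA, against 28.9, 19.2 and 31.0 RPKM with luciferase siRNA. Its 3 libraries with CDK12-2 siRNA spread widely, the log2 difference was 1.04 ± 0.29 (limma, adjusted p = 0.028), and it did not pass the test in 6 of the alternatives.

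Matrix proteins and matrix enzymes numbered 9 beyond the 10 largest, where FN1 (fibronectin) and P4HA3 (a collagen prolyl hydroxylase subunit) already stand. SRGN, the proteoglycan core protein serglycin, had 29.8, 27.2 and 22.7 RPKM with CDK12-2 siRNA, against 8.69, 11.7 and 8.58 RPKM with luciferase siRNA (log2 difference 1.37 ± 0.17, limma, adjusted p = 0.00049). COL4A1, a chain of basement membrane collagen, had 29.9, 40.1 and 48.2 RPKM with CDK12-2 siRNA, against 15.4, 12.04 and 17.8 RPKM with luciferase siRNA. COL7A1, the collagen of anchoring fibrils, had 5.99, 6.21 and 7.12 RPKM with CDK12-2 siRNA, against 2.06, 1.55 and 2.36 RPKM with luciferase siRNA. In both collagens the highest CDK12-2 library was AK49, and the lowest was AK39, whereas SRGN ran the other way. LOXL1, which cross-links elastin, TGFBI, an integrin-binding matrix protein, THBS1, thrombospondin, and COL4A5, another basement membrane collagen, had log2 differences of 1.15 ± 0.22, 1.12 ± 0.18, 1.11 ± 0.24 and 1.08 ± 0.10. In the list of 57 tested genes for extracellular matrix and its enzymes, 13 were higher (22.8%) and 6 lower (10.5%), against 9.76% and 15.4% of all tested genes (14 higher and 2 lower without AK39, 6 higher and 2 lower without AK41 and 13 higher and 4 lower without AK49, 16 higher and 11 lower when scaled to reads in genes, 16 higher and 11 lower by quantiles, 15 higher and 11 lower without the 3 libraries richest in tailless RNA). Counts in brackets stand against all-gene counts of the same alternative, such as 2862 higher and 2633 lower when scaled to reads in genes. COL8A1, a short-chain collagen, was higher, with a log2 difference of 0.94 ± 0.074. It had 0.286, 0.223 and 0.235 RPKM with luciferase siRNA, so it passed the filter only through libraries with siRNA against CDK12. MMP1, interstitial collagenase, was lower, with -0.90 ± 0.15.

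Secreted factors and the enzymes that process them also numbered 9. CPE, the prohormone processing carboxypeptidase E, had 6.53, 7.07 and 7.69 RPKM with CDK12-2 siRNA, against 1.79, 1.99 and 2.13 RPKM with luciferase siRNA (log2 difference 1.44 ± 0.090, limma, adjusted p = 1.6e-05). STC1, a stanniocalcin and relative of STC2, had 1.76, 1.93 and 2.23 RPKM with CDK12-2 siRNA, against 0.114, 0.124 and 0.108 RPKM with luciferase siRNA. The ratio of mean RPKM for STC1 was 17.1, one of the largest on this side, from a luciferase level far under 1 RPKM. FGFBP1, a carrier of fibroblast growth factors, had a log2 difference of 1.28 ± 0.078, NXPH2, a neurexophilin, 1.26 ± 0.077, and VASN, a cell-surface binder of TGF-beta, 1.25 ± 0.19. WNT5B, a Wnt ligand, changed by 1.19 ± 0.14 and SERPINB2, an inhibitor of plasminogen activators, by 1.03 ± 0.16. The list of 42 tested secreted signalling factors and antagonists held 14 higher genes (33.3%) and 9 lower (21.4%; 12 higher and 4 lower without AK39, 7 higher and 3 lower without AK41 and 11 higher and 8 lower without AK49). As deposited, 9.76% of all tested genes were higher and 15.4% lower. Both FGF1 and FGF5, fibroblast growth factors, were lower. FGF1 had 1.14, 1.17 and 1.18 RPKM with CDK12-2 siRNA, against 3.17, 3.24 and 2.84 RPKM with luciferase siRNA. FGF5 had 8.74, 10.9 and 11.4 RPKM with CDK12-2 siRNA, against 23.5, 19.4 and 21.1 RPKM with luciferase siRNA.

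Surface receptors and channels added 5 genes. KCNJ4, an inward rectifier potassium channel, had 3.34, 4.07 and 5.05 RPKM with CDK12-2 siRNA, against 0.755, 0.717 and 0.909 RPKM with luciferase siRNA (log2 difference 1.51 ± 0.18, limma, adjusted p = 0.0004). NPTXR, the neuronal pentraxin receptor, had 4.76, 6.998 and 9.11 RPKM with CDK12-2 siRNA, against 2.28, 1.48 and 2.36 RPKM with luciferase siRNA. UNC5A, a netrin receptor, SIRPA, which binds CD47, and AMIGO2, an adhesion protein, had log2 differences of 1.17 ± 0.17, 1.13 ± 0.19 and 1.08 ± 0.072. Beside them, 24 of 69 tested cell adhesion receptors were higher (34.8%) and 5 lower (7.25%), with a median log2 difference of 0.28 against -0.034 over all tested genes, and none of these passed the 2-fold limit on log2(RPKM + 1). Of all tested genes 9.76% were higher and 15.4% lower. With libraries left out the list gave 22 higher and 2 lower without AK39, 2 higher and 1 lower without AK41 and 20 higher and 5 lower without AK49, 24 higher and 9 lower by quantiles. Without AK41, calls over all tested genes also fell, to 288 higher and 614 lower. ITGB8, an integrin beta chain, had 0.796, 1.03 and 1.05 RPKM with CDK12-2 siRNA, against 0.242, 0.252 and 0.227 RPKM with luciferase siRNA, a ratio of mean RPKM of 3.98. ITGB8 thus passed the filter only through libraries with siRNA against CDK12, and the part of the filter in the list's higher share was not tested. CLDN12, a claudin, had 10.6, 11.8 and 11.1 RPKM with CDK12-2 siRNA, against 6.62, 7.43 and 6.94 RPKM with luciferase siRNA. ITGA4, an integrin alpha chain, went the other way with 0.888, 1.05 and 0.956 RPKM with CDK12-2 siRNA, against 2.54, 2.33 and 2.36 RPKM with luciferase siRNA, a ratio of 0.400. A list of receptors and SMADs of the BMP and TGF-beta pathway also holds ID3, which is neither and is among the 2-fold changes above. In this list 9 of 27 were higher and 1 was lower, with a median of 0.22 (11 higher and 1 lower without AK39, 1 higher and 1 lower without AK41 and 4 higher and 1 lower without AK49, 14 higher and 2 lower when scaled to reads in genes, 15 higher and 2 lower by quantiles, 14 higher and 1 lower without the 3 libraries richest in tailless RNA). The 9 and 1 were 33.3% and 3.70% of the 27, beside 9.76% and 15.4% of all tested genes. ID3 was one of the 9, and SMAD7, an inhibitor of TGF-beta signalling, had 2.04, 2.35 and 2.89 RPKM with CDK12-2 siRNA, against 1.13, 1.04 and 1.06 RPKM with luciferase siRNA. TGFBR3, a coreceptor for TGF-beta, was the lower one (-0.89 ± 0.11).

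**Figure D3:**
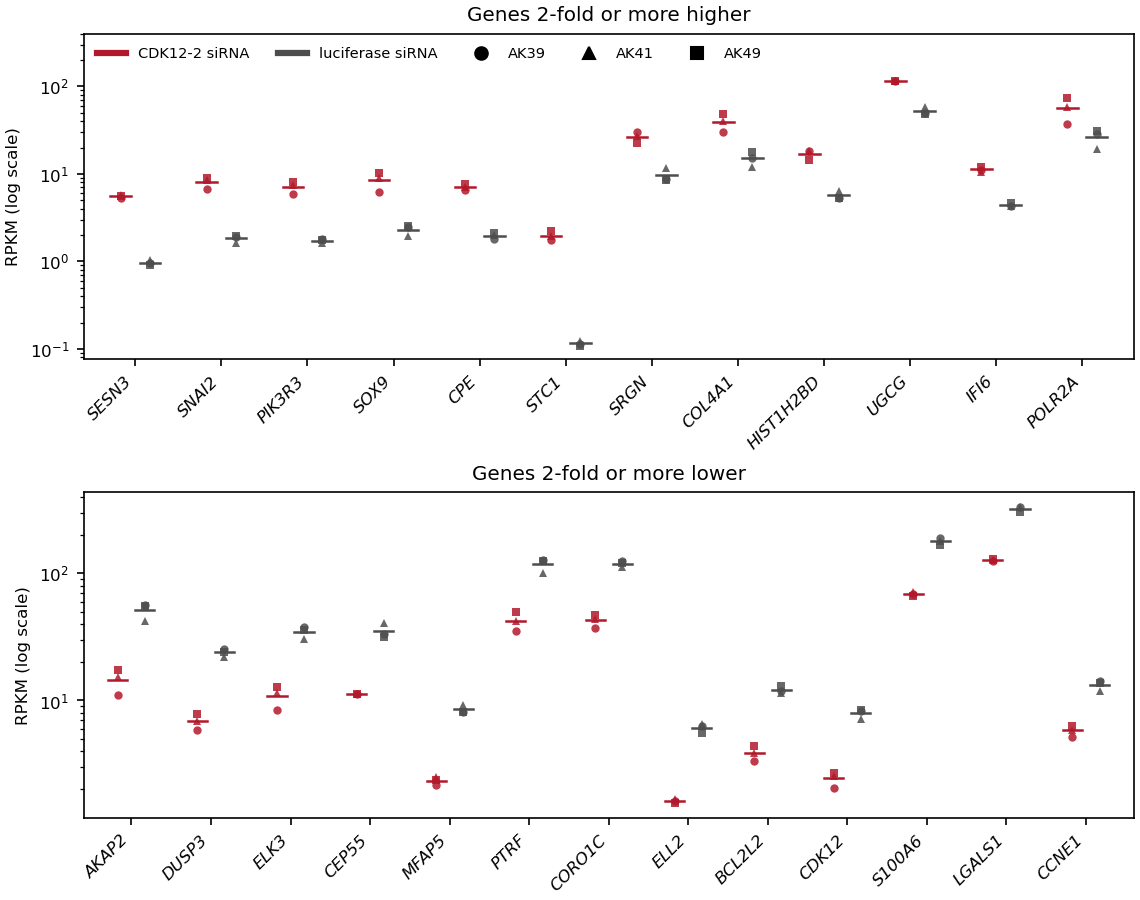
Points are RPKM values on a log scale in the 3 CDK12-2 libraries (red, left of each pair) and the 3 luciferase libraries (grey, right), with a marker shape for each AK name and a bar at the mean. Upper panel, 12 genes higher by 2-fold or more, with STC1 at 1.76 to 2.23 RPKM against 0.108 to 0.124 RPKM. Lower panel, 13 genes lower by 2-fold or more. The 2 groups do not overlap in any gene shown.

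Beyond HIST1H2BJ and HIST1H2BK, 6 histone genes were higher by 2-fold or more. HIST1H2AG had 5.75, 5.24 and 5.47 RPKM with CDK12-2 siRNA, against 1.10, 1.52 and 1.21 RPKM with luciferase siRNA (log2 difference 1.51 ± 0.090, limma, adjusted p = 1.4e-05). HIST1H2BD had 18.5, 18.2 and 14.2 RPKM with CDK12-2 siRNA, against 5.24, 6.45 and 5.34 RPKM with luciferase siRNA. HIST1H2AC had 12.1, 10.7 and 9.76 RPKM with CDK12-2 siRNA, against 3.91, 5.46 and 4.04 RPKM with luciferase siRNA. The 2 groups did not overlap in these 3 genes. HIST1H3H, which spread more among the luciferase libraries, had 4.73, 4.38 and 3.64 RPKM with CDK12-2 siRNA, against 0.791, 2.51 and 1.04 RPKM with luciferase siRNA. HIST1H2BO had 8.31, 5.68 and 4.16 RPKM with CDK12-2 siRNA, against 1.01, 3.17 and 2.64 RPKM with luciferase siRNA. In all 5 of these genes luciferase AK41, where tailless RNA was most abundant in its group, was the highest luciferase library, and HIST1H2BO did not pass the test in 4 alternatives. H2BFS, with 12.1, 7.88 and 8.73 RPKM with CDK12-2 siRNA, against 4.65, 3.39 and 2.56 RPKM with luciferase siRNA, is nearly identical to other H2B genes, so its reads may be split between copies. The histone list includes the pseudogenes H3F3AP4 and H2AFZP3. Over the list, 20 of 52 tested entries, H3F3AP4 among them, were higher (38.5%, against 9.76% of all genes). Another 2 were lower (3.85%, against 15.4% of all genes), and the median log2 difference was 0.44. Replication-dependent histone mRNAs normally end in a stem-loop with no poly(A) tail, and the library kit selects poly(A). Without the 3 libraries richest in tailless RNA, 29 were higher and 3 lower. With a replicate name left out there were 10 higher and 0 lower without AK39, 18 higher and 0 lower without AK41 and 15 higher and 2 lower without AK49. The part of RNA without a tail in these differences was not tested. Replacement histone H3.3, made from ordinary polyadenylated mRNA, went both ways: H3F3A was higher (0.62 ± 0.073) and H3F3B lower (-0.42 ± 0.086). H3F3C, a relative of H3.3 genes, was the other lower one (-0.37 ± 0.080).

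The promoters of HIST1H2BK and HIST1H2AG are printed because histone genes of this cluster on chromosome 6 passed the test together. Each is the RefSeq window in GRCh38.p14 from 250 bases before to 50 bases after the start of the gene, with CCAAT and TATAAA on either strand in capitals. RefSeq lists the 2 genes as H2BC12 and H2AC11.
HIST1H2BK (chr6:27146809-27147108, minus strand): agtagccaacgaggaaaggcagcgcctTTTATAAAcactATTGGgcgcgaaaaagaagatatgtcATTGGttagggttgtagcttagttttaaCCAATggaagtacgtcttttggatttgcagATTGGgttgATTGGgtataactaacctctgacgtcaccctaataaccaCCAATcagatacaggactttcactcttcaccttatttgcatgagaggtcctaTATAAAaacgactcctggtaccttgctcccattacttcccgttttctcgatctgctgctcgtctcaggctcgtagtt
HIST1H2AG (chr6:27132793-27133092, plus strand): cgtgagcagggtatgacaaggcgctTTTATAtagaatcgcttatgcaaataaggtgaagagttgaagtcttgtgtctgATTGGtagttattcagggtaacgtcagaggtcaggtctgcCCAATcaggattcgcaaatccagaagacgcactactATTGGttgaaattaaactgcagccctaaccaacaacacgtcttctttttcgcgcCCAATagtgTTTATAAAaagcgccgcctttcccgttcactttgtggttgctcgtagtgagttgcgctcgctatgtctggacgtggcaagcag
The window of HIST1H2AG shares 253 bases with that of HIST1H2BJ, which is read in the opposite direction. Of the 8 histone genes higher by 2-fold or more, 7 had a RefSeq promoter, and all 7 windows held both CCAAT and TATAAA. Over 35116 promoters of the same length, 34.6% held CCAAT and 11.5% held TATAAA on either strand. Promoters of histone genes not moved 2-fold were not counted apart, so whether the matches go with the change was not tested. These are matches of letters and say nothing of which factor was bound.

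Lipid and cholesterol genes passed the test on both sides. UGCG, glucosylceramide synthase, had 115, 116 and 114 RPKM with CDK12-2 siRNA, against 49.1, 58.3 and 49.0 RPKM with luciferase siRNA, and its CDK12-2 mean was the highest of the 99 higher genes (log2 difference 1.13 ± 0.11, limma, adjusted p = 0.00012). TM7SF2, a sterol reductase of cholesterol synthesis, had 4.45, 4.68 and 5.20 RPKM with CDK12-2 siRNA, against 1.53, 1.44 and 1.81 RPKM with luciferase siRNA. In the list of 29 tested genes of sterol synthesis and uptake, 11 were higher (37.9%) and 2 lower (6.90%), with a median log2 difference of 0.17 (10 higher and 1 lower without AK39, 3 higher and 1 lower without AK41 and 8 higher and 1 lower without AK49). All tested genes had 9.76% higher and 15.4% lower. The lower pair of the sterol list were PMVK, phosphomevalonate kinase, which had 2.00, 2.21 and 2.22 RPKM with CDK12-2 siRNA, against 14.5, 11.1 and 12.9 RPKM with luciferase siRNA, and ACAT2 (-0.33 ± 0.079). A small set held interferon, proteasome and cell death genes. IFI6, an interferon-induced mitochondrial protein, had 11.2, 10.6 and 11.98 RPKM with CDK12-2 siRNA, against 4.25, 4.25 and 4.67 RPKM with luciferase siRNA. PSMB8, an immunoproteasome subunit, and BIK, a BH3 protein that promotes apoptosis, changed by 1.04 ± 0.094 and 1.02 ± 0.095. Of 33 tested interferon-stimulated genes and RNA sensors, 7 were higher (21.2%) and 2 lower (6.06%), against 9.76% and 15.4% of all tested genes (6 higher and 0 lower without AK39, 4 higher and 0 lower without AK41 and 7 higher and 1 lower without AK49, 11 higher and 2 lower when scaled to reads in genes).

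Several of the higher genes lie next to each other. The 99 genes occupy 87 separate stretches of the genome when overlapping spans are joined, and 77 when genes within 100 kb are joined. On chromosome 11 (hg19), the span of PPME1 overlaps those of C2CD3, SNORA7 and P4HA3. PPME1 (chr11:73882144-73965748) encodes a methylesterase of phosphatase PP2A and had 67.0, 83.5 and 94.0 RPKM with CDK12-2 siRNA, against 9.67, 7.99 and 9.97 RPKM with luciferase siRNA. P4HA3 (chr11:73946846-74022702) had 10.9, 14.3 and 15.8 RPKM with CDK12-2 siRNA, against 1.92, 1.68 and 1.91 RPKM with luciferase siRNA. C2CD3, a centriole protein, had 7.99, 10.9 and 12.7 RPKM with CDK12-2 siRNA, against 4.72, 3.63 and 4.78 RPKM with luciferase siRNA. The next tested genes on either side, UCP2 and PGM2L1, had log2 differences of 0.11 ± 0.21 and -0.061 ± 0.10 (limma, adjusted p = 0.76 and 0.70). LIPT2, farther out at 279.8 kb, was higher by 0.82 ± 0.090, while PAAF1 and COA4, on the other side at -310.7 and -338.1 kb, were lower, with log2 differences of -0.66 ± 0.089 and -0.63 ± 0.096 (limma, adjusted p = 0.00078 and 0.0014). On chromosome 15, GREM1 (chr15:33010175-33026870), an antagonist of BMPs, had 30.2, 39.3 and 42.2 RPKM with CDK12-2 siRNA, against 4.07, 3.75 and 4.27 RPKM with luciferase siRNA. SCG5, a secretory granule protein, had 12.04, 12.03 and 11.02 RPKM with CDK12-2 siRNA, against 2.64, 2.89 and 2.27 RPKM with luciferase siRNA. The noncoding RP11-758N13.1, which overlaps the start of GREM1, had 2.89, 2.56 and 2.999 RPKM with CDK12-2 siRNA, against 0.255, 0.365 and 0.327 RPKM with luciferase siRNA. Of the 2 tested genes that flank these, FMN1 was higher by 0.57 ± 0.069 and ARHGAP11A changed by 0.076 ± 0.10 (limma, adjusted p = 0.00045 and 0.63). The kit does not mark strand, so reads of overlapping neighbours cannot be told apart.

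**Figure D4:**
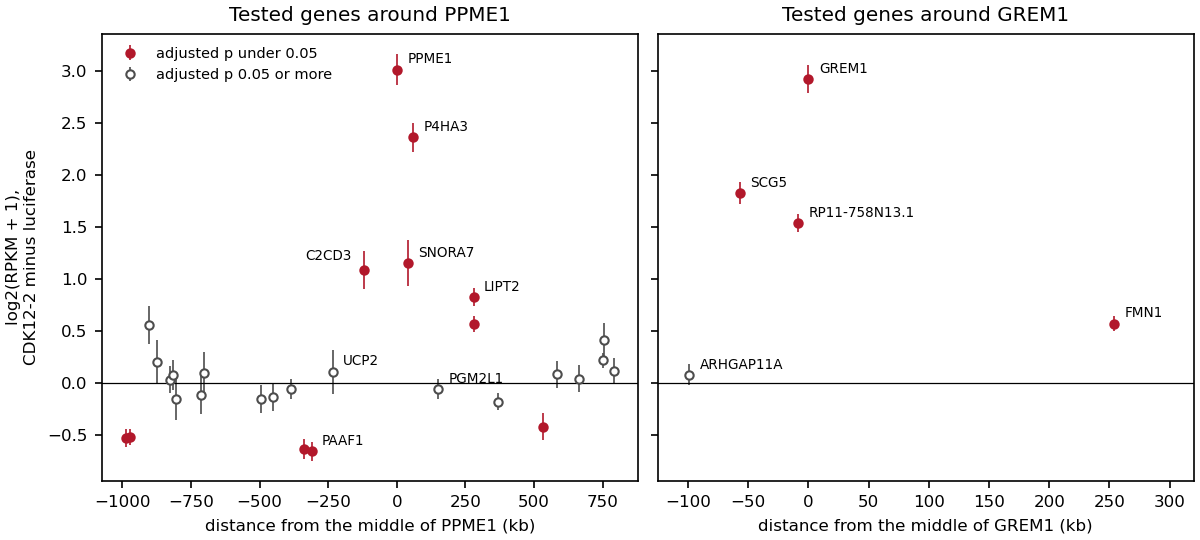
Each point is a tested gene, placed by the distance in kb of its middle from the middle of PPME1 (left) or GREM1 (right) along the hg19 chromosome. The y axis is the difference in log2(RPKM + 1), CDK12-2 minus luciferase, and bars are 1 SE. Filled points passed the test and open points did not. PPME1 and P4HA3 at 3.01 and 2.36 stand among neighbours such as UCP2 at 0.11, and GREM1 at 2.91 stands beside SCG5 at 1.82.

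The other 35 higher genes beyond the 10 largest were mostly noncoding or of unclear role. Long intergenic RNAs made up 10 of all 99 higher genes (10.1%) and 9 of the 163 lower genes (5.52%), against 2.49% of all tested genes. Some of the higher ones, such as LINC01111, were tested only through their libraries with siRNA against CDK12. The part of the filter in the higher share was not tested. PDCD4-AS1, at rank 11, had 3.69, 4.93 and 5.59 RPKM with CDK12-2 siRNA, against 0.854, 0.548 and 0.701 RPKM with luciferase siRNA. LINC01111 had 4.66, 4.96 and 4.15 RPKM with CDK12-2 siRNA, against 0.703, 0.846 and 0.737 RPKM with luciferase siRNA. LINC00472 had 8.79, 8.95 and 9.38 RPKM with CDK12-2 siRNA, against 3.01, 3.18 and 3.32 RPKM with luciferase siRNA. The groups did not overlap in any of the 3. The other genes of this kind at ranks 11 to 40 were RPL32P29, RP11-301G19.1, MIR711, MIR4680, CCDC92, RP11-290M5.4, GRAMD3 and RP3-434P1.6, with log2 differences of 1.30 ± 0.18 to 1.53 ± 0.11. The spans of MIR711 and RP3-434P1.6 overlap those of COL7A1 and KCNJ4, so these pairs may count the same reads. MIR4680 lies within 100 kb of PDCD4-AS1. MIR31HG, the host transcript of a microRNA and named after its values were seen, had 1.65, 2.01 and 1.79 RPKM with CDK12-2 siRNA, against 0.256, 0.371 and 0.361 RPKM with luciferase siRNA. Its span overlaps that of the pseudogene IFNWP19, so that both may count the same reads.

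**Figure D5:**
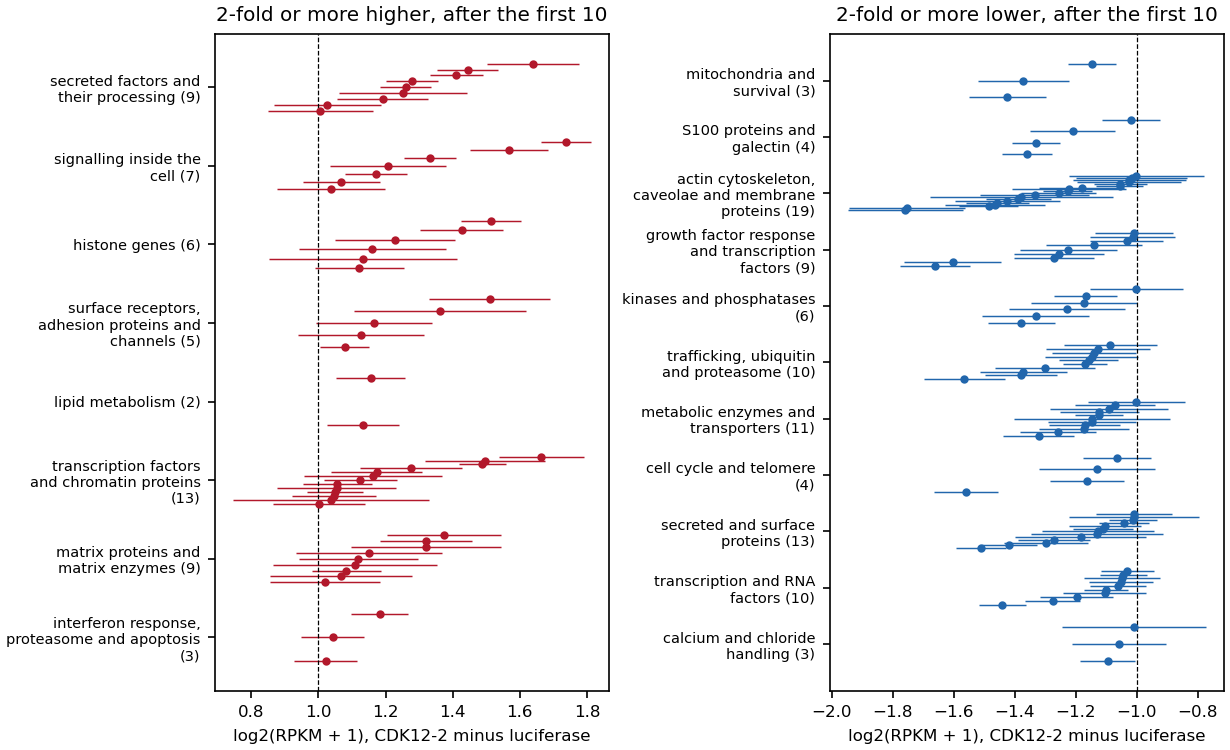
Points are the 54 higher and 92 lower genes placed in groups by known role, beyond the 10 largest on each side. The x axis is the difference in log2(RPKM + 1), CDK12-2 minus luciferase, bars are 1 SE, and dashed lines mark the 2-fold limit. Group sizes are in brackets. On the higher side the points run up to 1.74 and on the lower side down to -1.76.

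On the lower side, the largest group was of the actin cytoskeleton, caveolae and membrane proteins, with 19 genes. AKAP2, an actin-associated anchor of protein kinase A, had 11.1, 15.2 and 17.4 RPKM with CDK12-2 siRNA, against 56.7, 42.1 and 55.2 RPKM with luciferase siRNA (log2 difference -1.76 ± 0.19, limma, adjusted p = 0.00023). The read-through gene PALM2-AKAP2 contains it and gave nearly the same values (-1.75 ± 0.19), so the pair counts largely the same reads. CORO1C, a coronin that binds actin filaments, had 37.5, 43.9 and 47.3 RPKM with CDK12-2 siRNA, against 125, 111 and 121 RPKM with luciferase siRNA. PTRF, the caveolar coat protein cavin-1, had 35.4, 41.8 and 49.3 RPKM with CDK12-2 siRNA, against 128, 101 and 125 RPKM with luciferase siRNA. LIN7C, a polarity scaffold, had 2.94, 3.33 and 3.17 RPKM with CDK12-2 siRNA, against 11.2, 11.4 and 9.35 RPKM with luciferase siRNA. No group overlapped in these 4 genes, and their ratios of mean RPKM were 0.284, 0.360, 0.358 and 0.296. PLP2, a small membrane protein, CD151, a tetraspanin that binds integrins, SH3BGRL3 and RHOB, a small GTPase, had log2 differences of -1.42 ± 0.17, -1.39 ± 0.11, -1.34 ± 0.18 and -1.26 ± 0.12. FLNC, a filamin that cross-links actin, had 66.9, 96.8 and 128 RPKM with CDK12-2 siRNA, against 274, 181 and 299 RPKM with luciferase siRNA. It varied by more than 1.5 times within either group, and it did not pass the test in 2 alternatives. In the wider list of actin, tubulin, motor and keratin genes, 37 of 207 were lower (17.9%, against 15.4% of all genes) and 14 higher (6.76%), near the background (12 higher and 10 lower without AK39, 3 higher and 6 lower without AK41 and 7 higher and 32 lower without AK49, 29 higher and 35 lower when scaled to reads in genes, 29 higher and 37 lower by quantiles).

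Small calcium-binding S100 proteins and a galectin gave 4 lower genes. LGALS1, galectin-1, had 126, 127 and 129.5 RPKM with CDK12-2 siRNA, against 331, 330.3 and 305 RPKM with luciferase siRNA (log2 difference -1.33 ± 0.079, limma, adjusted p = 1.4e-05). S100A6 had 68.5, 71.7 and 66.8 RPKM with CDK12-2 siRNA, against 189.8, 179 and 167 RPKM with luciferase siRNA. In S100A10, the partner of annexin A2, there were 41.8, 52.0 and 54.3 RPKM with CDK12-2 siRNA, against 134, 99.7 and 113 RPKM with luciferase siRNA. S100A2 had 12.64, 13.8 and 13.4 RPKM with CDK12-2 siRNA, against 30.8, 28.1 and 25.2 RPKM with luciferase siRNA. In each of the 4 genes every CDK12-2 library lay far under the lowest luciferase library. None of the 4 has the heptamer in its UTR. Calcium and chloride handling genes CLIC1, ATP2B4 and ITPR3 had log2 differences of -1.10 ± 0.090, -1.06 ± 0.15 and -1.01 ± 0.24, and ITPR3 did not pass the test in 4 alternatives.

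Growth factor response genes and transcription factors gave 9 lower genes. DUSP3, a phosphatase that acts on MAP kinases, had 5.90, 6.88 and 7.87 RPKM with CDK12-2 siRNA, against 25.3, 22.0 and 24.3 RPKM with luciferase siRNA (log2 difference -1.66 ± 0.11, limma, adjusted p = 2.4e-05). ELK3, an ETS factor that works with serum response factor, had 8.38, 11.4 and 12.7 RPKM with CDK12-2 siRNA, against 37.8, 30.5 and 35.7 RPKM with luciferase siRNA. DUSP1, an immediate early MAP kinase phosphatase, had 18.1, 19.9 and 23.6 RPKM with CDK12-2 siRNA, against 53.8, 45.1 and 54.1 RPKM with luciferase siRNA. In all 3 genes the highest CDK12-2 library was AK49, and it lay well under the lowest luciferase library, AK41. KLF6 and KLF2, Krüppel-like factors, and HES4 had log2 differences of -1.22 ± 0.16, -1.14 ± 0.16 and -1.26 ± 0.15. Of 33 tested immediate early and growth factor feedback genes, 12 were lower (36.4%) and 2 higher (6.06%), with a median log2 difference of -0.23 (2 higher and 7 lower without AK39, 1 higher and 6 lower without AK41 and 2 higher and 12 lower without AK49). Beside this, 15.4% of all tested genes were lower and 9.76% higher. The 2 higher genes of the list were HES1 and SGK1, a serum-induced kinase (0.43 ± 0.067). Under each of the other scalings 13 were lower.

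Secreted and surface proteins contributed 13 lower genes. MFAP5, a microfibril protein, had 2.17, 2.49 and 2.38 RPKM with CDK12-2 siRNA, against 8.16, 9.28 and 8.18 RPKM with luciferase siRNA (log2 difference -1.51 ± 0.081, limma, adjusted p = 1.1e-05). ESM1, the proteoglycan endocan, had 1.22, 1.12 and 1.25 RPKM with CDK12-2 siRNA, against 4.43, 5.50 and 4.72 RPKM with luciferase siRNA. The groups did not overlap in either. SCGB3A2, SDC4 and GPRC5A had log2 differences of -1.30 ± 0.14, -1.27 ± 0.12 and -1.13 ± 0.22. SDC4 is a heparan sulfate syndecan and GPRC5A a retinoid-induced membrane protein.

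Transcription and RNA factors numbered 10. ELL2, an elongation factor of the super elongation complex, had 1.63, 1.67 and 1.56 RPKM with CDK12-2 siRNA, against 6.34, 6.48 and 5.55 RPKM with luciferase siRNA (log2 difference -1.44 ± 0.077, limma, adjusted p = 1.1e-05). MLLT11, RBM3, a cold-induced RNA-binding protein, DHX33, an RNA helicase, and TADA2A, an adaptor of histone acetyltransferases, had log2 differences of -1.28 ± 0.090, -1.20 ± 0.12, -1.11 ± 0.14 and -1.10 ± 0.071. Of 57 tested genes for kinases of the polymerase tail and elongation factors, 8 were lower (14.0%) and 6 higher (10.5%), close to the shares over all genes (5 higher and 4 lower without AK39, 0 higher and 3 lower without AK41 and 5 higher and 7 lower without AK49, 9 higher and 8 lower when scaled to reads in genes, 11 higher and 8 lower by quantiles, 8 higher and 7 lower without the 3 libraries richest in tailless RNA). HEXIM1, which holds the elongation kinase P-TEFb inactive, was among the higher ones with 25.5, 30.4 and 33.6 RPKM with CDK12-2 siRNA, against 17.3, 14.5 and 17.2 RPKM with luciferase siRNA. Kinases and phosphatases other than CDK12 included WNK4, STK35 and IRAK1, a kinase of interleukin-1 and Toll-like receptor signalling. Their log2 differences were -1.33 ± 0.17, -1.23 ± 0.19 and -1.17 ± 0.18.

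Cell cycle and genome maintenance genes were few among the 2-fold changes. CEP55, which is needed for the last step of cytokinesis, had 11.2, 11.3 and 11.2 RPKM with CDK12-2 siRNA, against 33.5, 40.4 and 31.8 RPKM with luciferase siRNA (log2 difference -1.56 ± 0.11, limma, adjusted p = 2.3e-05). CCNE1, cyclin E1, had 5.18, 5.90 and 6.35 RPKM with CDK12-2 siRNA, against 14.2, 11.9 and 13.6 RPKM with luciferase siRNA. CDT1, a licensing factor of replication origins, had 7.72, 8.93 and 11.1 RPKM with CDK12-2 siRNA, against 24.1, 16.8 and 23.5 RPKM with luciferase siRNA. TINF2, a shelterin protein of telomeres, changed by -1.16 ± 0.12. In the wider lists, 27 of 104 tested DNA repair and checkpoint genes were lower (26.0%) and 6 higher (5.77%), with a median log2 difference of -0.17 and none past the 2-fold limit on log2(RPKM + 1) (5 higher and 12 lower without AK39, 0 higher and 5 lower without AK41 and 2 higher and 19 lower without AK49, 10 higher and 33 lower when scaled to reads in genes, 10 higher and 31 lower by quantiles). Among all tested genes 15.4% were lower and 9.76% higher. ATM, the double-strand break kinase, had 3.30, 3.57 and 3.43 RPKM with CDK12-2 siRNA, against 5.96, 6.23 and 5.35 RPKM with luciferase siRNA. SFR1, a recombination factor, was lower (log2 difference -0.74 ± 0.078, ratio of mean RPKM 0.466), while the checkpoint kinase WEE1 and the repair factor ERCC6 were higher by 0.58 ± 0.12 and 0.42 ± 0.076. Of 64 tested DNA replication genes, 18 were lower (28.1%) and 2 higher as deposited, and 11 and 12 were higher under the other scalings with 18 lower in each (4 higher and 3 lower without AK39, 0 higher and 3 lower without AK41 and 0 higher and 12 lower without AK49, 5 higher and 15 lower without the 3 libraries richest in tailless RNA). As deposited, the replication list stood beside the same 15.4% lower and 9.76% higher over all tested genes. Its median log2 difference was -0.0027, against -0.034 over all tested genes, so the list as a whole was not lower. CDC45, of the replicative helicase, had 7.05, 8.05 and 8.65 RPKM with CDK12-2 siRNA, against 13.5, 12.8 and 12.9 RPKM with luciferase siRNA. MCM2, of the same helicase, was higher, with 44.3, 53.1 and 61.3 RPKM with CDK12-2 siRNA, against 38.5, 31.3 and 38.9 RPKM with luciferase siRNA.

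Trafficking, ubiquitin and proteasome genes numbered 10. CD68, a lysosomal membrane protein often used as a macrophage marker, had 3.76, 4.72 and 5.20 RPKM with CDK12-2 siRNA, against 15.8, 13.8 and 16.5 RPKM with luciferase siRNA. The defining leukocyte marker PTPRC was at most 0.0710 RPKM in these libraries, and the 7 leukocyte markers summed to 4.18 to 5.71 RPKM with CDK12-2 siRNA and 14.3 to 17.7 RPKM with luciferase siRNA, nearly all of it CD68. PSMD9, a proteasome assembly factor, had 2.21, 2.64 and 2.82 RPKM with CDK12-2 siRNA, against 9.24, 6.92 and 8.67 RPKM with luciferase siRNA. SNF8, of the ESCRT-II complex, had 4.14, 5.23 and 5.58 RPKM with CDK12-2 siRNA, against 16.5, 12.19 and 14.9 RPKM with luciferase siRNA. In these 3 genes the CDK12-2 and luciferase libraries were far apart. VAT1 and KLHL8 had log2 differences of -1.30 ± 0.16 and -1.17 ± 0.072. BCL2L2, which encodes the apoptosis inhibitor Bcl-w, had 3.37, 3.87 and 4.37 RPKM with CDK12-2 siRNA, against 11.8, 11.4 and 12.98 RPKM with luciferase siRNA. ATP5E, a subunit of ATP synthase, and the mitochondrial protein gene LETM2 had log2 differences of -1.37 ± 0.15 and -1.15 ± 0.078.

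Metabolic enzymes and transporters gave 11 lower genes. ABHD11 had 1.17, 1.19 and 1.58 RPKM with CDK12-2 siRNA, against 5.07, 4.10 and 5.17 RPKM with luciferase siRNA (log2 difference -1.32 ± 0.12, limma, adjusted p = 8.9e-05). FADS3, of the fatty acid desaturase family, ENO2, a glycolytic enolase, and MBOAT2, a lysophospholipid acyltransferase, changed by -1.26 ± 0.12, -1.17 ± 0.15 and -1.17 ± 0.12. In the list for glycolysis and the hypoxia response, 10 of 35 were lower (28.6%) and 5 higher (14.3%), with a median of -0.20 (4 higher and 2 lower without AK39, 2 higher and 2 lower without AK41 and 3 higher and 6 lower without AK49). Across all tested genes 15.4% were lower and 9.76% higher, which is also the background of the lists that follow. HK1, the hexokinase of the first step, was lower (-1.09 ± 0.19), and P4HA1, a collagen prolyl hydroxylase subunit, was higher (0.87 ± 0.11). Antioxidant and glutathione genes had 11 of 42 lower (26.2%) and 2 higher (0 higher and 3 lower without AK39, 0 higher and 1 lower without AK41 and 0 higher and 6 lower without AK49, 6 higher and 8 lower when scaled to reads in genes, 4 higher and 10 lower by quantiles, 2 higher and 6 lower without the 3 libraries richest in tailless RNA). PRDX1, a peroxiredoxin, had 133, 145 and 136 RPKM with CDK12-2 siRNA, against 252, 256 and 235 RPKM with luciferase siRNA. For the integrated stress and unfolded protein response, 11 of 44 were lower and 4 higher (4 higher and 6 lower without AK39, 1 higher and 4 lower without AK41 and 3 higher and 9 lower without AK49, 7 higher and 12 lower when scaled to reads in genes). As shares of this list, 25% were lower and 9.09% higher as deposited. STC2 and the mTORC1 inhibitor DDIT4 (0.62 ± 0.095) were higher, while DDIT3, the factor CHOP, and ASNS, asparagine synthetase, were lower (-0.86 ± 0.086 and -0.71 ± 0.081). All 9 mitochondrially encoded genes that passed, of 37 tested, were higher: 7 tRNAs and 2 ribosomal RNAs, none of them a messenger (12 higher and 0 lower without AK39, 2 higher and 0 lower without AK41 and 6 higher and 0 lower without AK49, 15 higher and 0 lower when scaled to reads in genes, 16 higher and 0 lower without the 3 libraries richest in tailless RNA). The 9 mitochondrial genes were 24.3% of their list. The remaining 23 lists had 0% to 19.6% of members higher and 0% to 23.3% lower.

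The remaining 61 lower genes held 18 antisense transcripts, 13 protein-coding genes and 8 long intergenic RNAs. At ranks 11 to 40 these were RP1-90J20.12, FLJ20373, CTD-2354A18.1, AC091133.1, RP11-87C12.2, RP11-350N15.6, C19orf33, RP11-394J1.2, LRRC20, LINC00707, SFTA1P, MIR4492, RP11-146N23.1, MIR4271, LINC01057 and TMEM256, with log2 differences of -1.76 ± 0.12 to -1.40 ± 0.078. The spans of AC091133.1, RP11-87C12.2, RP11-350N15.6 and RP11-394J1.2 overlap those of SNF8, PSMD9, LETM2 and ELK3, lower genes described above. Each of these pairs may count the same reads. LINC00707 had 8.87, 11.7 and 12.8 RPKM with CDK12-2 siRNA, against 37.5, 28.2 and 33.1 RPKM with luciferase siRNA. SFTA1P had 17.2, 20.45 and 17.5 RPKM with CDK12-2 siRNA, against 52.2, 57.0 and 47.5 RPKM with luciferase siRNA. The groups did not overlap in either.

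Gene spans are given as a description, with no test. Among protein-coding genes, the median span was 28.5 kb in the 67 higher and 14.2 kb in the 110 lower genes, against 31.8 kb in 11160 tested. Spans of 100 kb or more made up 23.9% of the higher genes (16) and 10% of the lower (11), against 17.9% of all tested. Antisense and sense-overlapping transcripts made up 8.08% of the higher and 16.0% of the lower genes, against 9.85% of all tested. Since 83 lower and 49 higher genes overlap another tested gene, some of these may repeat the counts of a partner, as may the 54.4% of all tested genes that overlap another.

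Set beside the second siRNA, CDK12-2 gave no gene that differed at an adjusted p under 0.05 in limma on all 9 libraries without pairing. The lowest adjusted p over 15208 genes was 0.60, 101 genes (0.664%) had an unadjusted p under 0.05, and 0 passed in 11 of the 12 alternatives run for this comparison. In the other one, AK39, AK41 and AK49 were paired within the 6 CDK12-2 and CDK12-6 libraries as a replicate block, added after seeing the data, since deviations from the group means correlated at 0.13 to 0.81 under these names. It called 1 gene, AP000304.1, at 2.08, 2.11 and 2.12 RPKM with CDK12-2 siRNA, against 1.0011, 0.796 and 0.997 RPKM with CDK12-6 siRNA. Its log2 difference was 0.69 ± 0.058 (SE; limma, adjusted p = 0.0056), and 1241 genes (8.16%) had an unadjusted p under 0.05 in that fit. Over the 262 genes moved 2-fold or more, the median size of the difference between CDK12-2 and CDK12-6 was 0.065 on the log2 scale. The widest was in RP11-146N23.1, a pseudogene, at -1.12 ± 0.36 (SE), and its CDK12-2 libraries had 19.9, 4.96 and 11.2 RPKM, against 24.2, 26.0 and 21.7 RPKM with CDK12-6 siRNA. A p that misses the threshold does not show that the siRNAs act alike, and both are set against the same 3 luciferase libraries in any comparison with the control.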

How the data were processed

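Poly(A)-selected RNA of OVCAR-8 cells was sequenced in 9 libraries with a kit that does not mark strand, per the labels' protocols. The submitters' processing notes name TopHat2, featureCounts, edgeR and the hg19 build, and the version of the annotation was not given in the sources used. Per the file headers, the authors deposited RPKM values for each library together with log2 fold changes and p-values of their own, and those fold changes and p-values were not used. RPKM of 57773 listed genes was taken as deposited, and 100% of values above 0 were whole reads within 0.001 of a read once gene length was undone, which gave each library's depth. Genes with at least 1 RPKM in 3 or more libraries (15208) were tested with limma 3.58.1 in R 4.3.3 on log2(RPKM + 1), with a trend, all 9 libraries in 3 groups and Benjamini-Hochberg adjustment over all tested genes at a threshold of 0.05. The scripts were tested on simulated data. Named genes are those at ranks 11 to 40 by size of change, up to 4 later genes per group of known role, and up to 2 higher and 2 lower genes per list, apart from those said to be chosen after their values were seen. Members, groups and lists were chosen with earlier results of these data known. Alternatives changed the pseudocount, filter, scaling and 2-fold limit, left out libraries and added a replicate block. Deviations of CDK12-2 and CDK12-6 libraries from their group means correlated at 0.76 for AK39, 0.13 for AK41 and 0.81 for AK49, so these names were also paired in a fit of those 6 libraries. A few named genes and 1 site are not reported here.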

Additional observations from a re-analysis of the deposited data

How the results depend on the processing

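With at least 5 RPKM asked for, 190 of the 262 genes moved 2-fold or more were tested, and all 190 passed in their direction. In the other alternatives all 262 were tested and kept their direction, 231 to 262 passed the limma test, and 190 to 262 stayed past 2-fold. The number of 2-fold genes was 669 with a pseudocount of 0.1 (330 higher, 339 lower) and 740 when 2-fold was set on the ratio of mean RPKM (371 higher, 369 lower). Called genes numbered 2335 higher with no filter above 0, and 1945 in all (641 higher, 1304 lower) with at least 5 RPKM asked for, where 60 were 2-fold higher. Values scaled to reads inside listed genes gave 2862 higher and quantile normalization 2727. With 1 library or 1 AK name left out, 902 to 3483 genes were called, 288 to 1841 higher and 614 to 2249 lower, and 87 to 155 were 2-fold higher and 104 to 200 2-fold lower. Called genes numbered 902 without AK41 in all groups (288 higher, 614 lower), 2144 without AK39 (911 lower) and 2352 without the CDK12-2 AK41 library. They numbered 2340 without luciferase AK39 and 2550 without luciferase AK49, with 944 higher without CDK12-2 AK49 and 847 higher without AK49 in all groups. MIR4657 and MIR614 missed the threshold in 7 alternatives each, and POLR2A, RP11-554A11.5 and RP4-536B24.2 in 6 each. Pairing of CDK12-2 and luciferase libraries by AK name was uneven. Their deviations from the group means correlated at -0.56 for AK39, -0.13 for AK41 and 0.65 for AK49. A fit with the replicate block called 5080 genes (2027 higher, 3053 lower), with 262 past 2-fold (99 and 163), and 0 genes between CDK12-2 and CDK12-6. Within the 6 CDK12-2 and CDK12-6 libraries, added after seeing the data, the replicate block called 1 gene and the fit without it 0. Without the 3 libraries richest in tailless RNA, an alternative chosen after seeing the data, 3964 genes were called and 276 were past 2-fold (122 higher, 154 lower). The cause of these shifts was not tested.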
